A study of Mus musculus with 8 samples.

Results

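The genes described here are 10 regulators of mitochondrial biogenesis and fusion, taken by name from the 55291 gene symbols of the count table, and all 10 were among the 26820 genes tested. They are the coactivators Ppargc1a and Ppargc1b, the nuclear receptors Esrra and Ppara, the transcription factors Nrf1 and Gabpa, the mitochondrial DNA packaging factor Tfam, and the membrane fusion GTPases Mfn1, Mfn2 and Opa1. Their RNA was measured in the ventricles of E10.5 mouse embryos, a stage at which the ventricles are still being shaped. The 4 Pkn2 cKO embryos were Pkn2 fl/fl and carried XMLC2-Cre, a driver active in cardiomyocytes, and the 4 littermate controls were Pkn2 fl/fl without Cre, so both groups carried the floxed allele on a C57BL/6 background (C57BL/6N in the protocol). Recombination was directed to cardiomyocytes, while the RNA came from whole ventricular tissue, which also holds endocardial, epicardial and blood cells.

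The question addressed by the comparison is how loss of PKN2, a serine/threonine kinase, in cardiomyocytes alters transcription before the heart is visibly misshapen. PGC-1 coactivators have no DNA binding domain of their own and act through factors such as ERR-alpha, PPAR-alpha, NRF1 and the GA-binding protein. Those factors bind genes of the respiratory chain and of mitochondrial DNA maintenance, TFAM among them. TFAM then packages the mitochondrial genome and is needed for its transcription. MFN1 and MFN2 join outer mitochondrial membranes and OPA1 joins inner ones, and the maturing heart depends on both arms for its oxidative energy supply.

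Library totals ran from 47559845 to 56660938 counts, and the 9 regulators with a mean of at least 1 CPM (counts relative to the TMM-scaled size of the library) held between 9274 and 95181 counts over the 8 libraries. For those 9 genes counting error was small, and errors below are the SD among the 4 embryos of each genotype. Pkn2 itself was at 133, 139, 152 and 153 CPM in control libraries 1 to 4 and at 83.1, 77.6, 79.6 and 84.3 CPM in cKO libraries 1 to 4. The groups did not overlap, and the log2 fold change was −0.83 (SE 0.060, edgeR adjusted p = 7.67e-06). All fold changes are cKO against control, so that negative values are lower in cKO.

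NRF1 and GABPA recognise short motifs, and the letters of such motifs were searched in the promoters of these regulators. Promoters of 9 of the 10 genes were found in the RefSeq promoter table (GRCm38.p6, 250 bases before to 50 bases after each start site), and Ppargc1b was the missing entry. The 9 genes had 12 promoters, and a gene was counted if any of its promoters held the letters. The core letters of the NRF1 motif, GCATGCGC, searched on both strands, were in the promoters of Esrra, Ppara and Opa1 and in 3.05% of all 27025 genes with a promoter. The core letters of the GABPA motif, CCGGAAG, also searched on both strands, were in the promoters of Tfam, Gabpa and Mfn1 and in 9.93% of all genes. The ERR-alpha letters TCAAGGTCA were in 0 of the 9 genes and in 0.466% of all genes. These 3 motifs do not contain one another, and a match describes the letters in the window rather than a bound site. The 6 windows of 30 bases are shown to place each match, 5′ to 3′ on the strand of the gene with the motif in capitals, and the Gabpa motif reads on the opposite strand.
Tfam, chr10:71238074-71238103, minus strand: tcctgccgcggaCCGGAAGtccgggcttcc
Mfn1, chr3:32529426-32529455, plus strand: agatccgaagcgCCGGAAGtagccgcccct
Gabpa, chr16:84835019-84835048, plus strand: ggagggtaagtgCTTCCGGgtccctcagct
Esrra, chr19:6921824-6921853, minus strand: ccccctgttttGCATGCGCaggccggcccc
Opa1, chr16:29579266-29579295, plus strand: tggctccccgcGCATGCGCatgtcatccgc
Ppara, chr15:85735736-85735765, plus strand: ggctcggtggcGCATGCGCgcggactaggg
The first base of the motif lay before the RefSeq start site of the promoter that held it. The distance was 47 bases in Tfam, 44 in Mfn1, 93 in Gabpa, 34 in Esrra, 57 in Opa1 and 29 in Ppara. In Opa1 and in Ppara the NRF1 letters also read on the other strand, overlapping the match shown. RefSeq start sites differ from the deposited gene bounds: the windows of Tfam, Gabpa and Ppara lie inside those bounds and that of Esrra crosses one.

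Levels between genes were compared in TPM, which the authors scaled for transcript length. Mfn2 was the most abundant of the 10, at a mean of 96.9 TPM over the 8 libraries (range 87.8 to 106.8). Opa1 followed at 50.01 TPM, then Mfn1 at 44.4, Gabpa at 40.7, Esrra at 39.8, Tfam at 31.2, Nrf1 at 24.3, Ppargc1a at 18.3, Ppargc1b at 10.8 and Ppara at 0.483 TPM. The ranges of neighbours did not overlap between Mfn2 and Opa1, between Tfam and Nrf1, between Ppargc1a and Ppargc1b, or between Ppargc1b and Ppara. The other neighbours overlapped in range, and Gabpa was above Esrra in only 5 of the 8 libraries. In the ventricle at this stage the fusion genes were thus the most abundant of the group by mean TPM. In control 1, however, Esrra (44.9 TPM) exceeded Mfn1 (42.9 TPM). Ppara, the receptor known for fatty acid catabolism in mature heart and liver, was the least abundant.

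None of the 10 regulators changed past the threshold (adjusted p of at most 0.05, from the quasi-likelihood F test of edgeR adjusted by Benjamini-Hochberg over all genes). Adjusted p-values ran from 0.163 for Esrra to 0.830 for Ppara with edgeR and from 0.0791 to 0.803 with DESeq2, which also called 0. Over all genes 230 passed, or 0.858%. At an unadjusted p under 0.05 stood 3 of the 10, Esrra, Gabpa and Ppargc1a, against 12.8% of all genes tested. All 3 were lower in cKO, and 6.2% of all genes were lower with such a p. By sign alone 8 of the 10 were lower and Ppargc1b and Ppara were higher, where 50.2% of all genes tested and 55.2% of genes with a mean of at least 1 CPM had a negative log2 fold change. The median log2 fold change was −0.09 for the 10 regulators and −0.02 for the 14302 genes with a mean of at least 1 CPM. The 95% intervals of the 9 regulators above 1 CPM reached no further than −0.40 and 0.27 on the log2 scale, and 7 of the 10 intervals included 0.

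**Figure D1:**
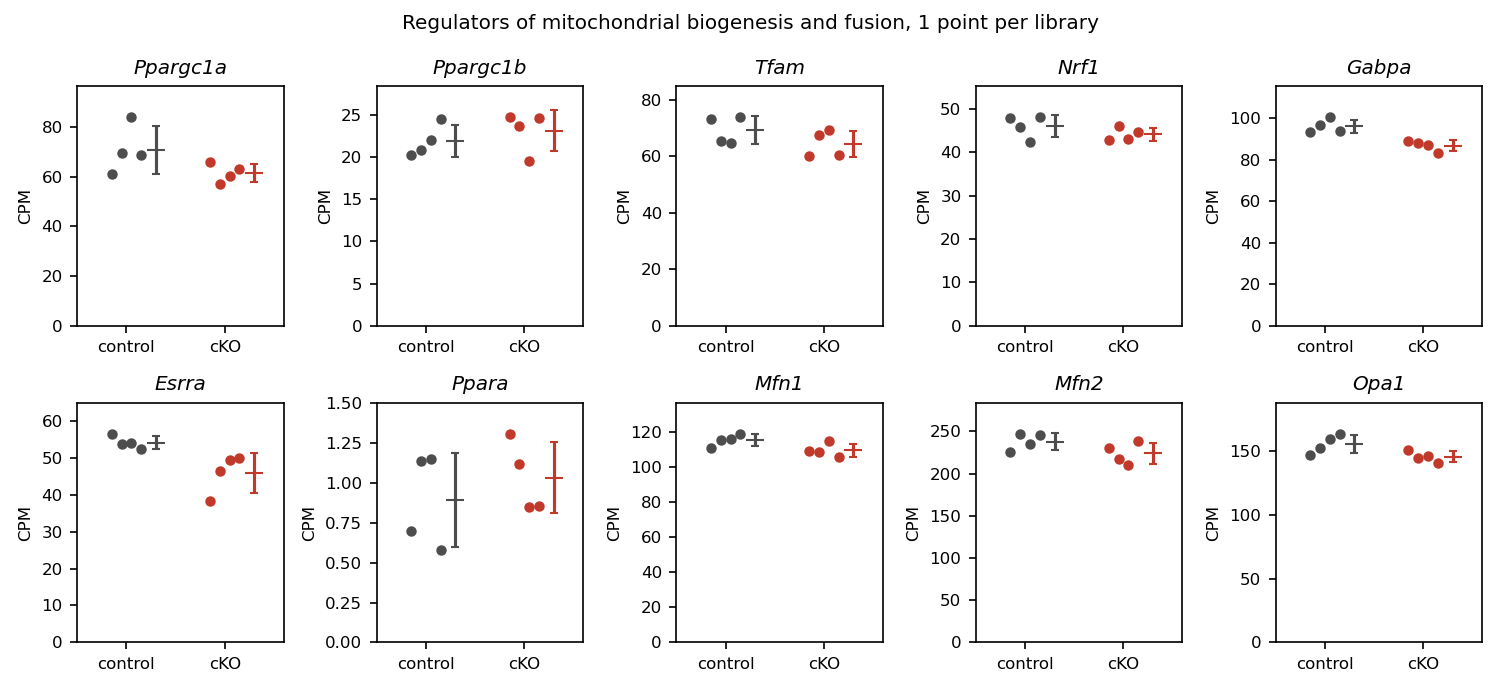
CPM of each regulator, with 1 point per library (grey, 4 control; red, 4 cKO), and the mean with its SD beside the points. The vertical axes start at 0 and differ between panels. Gabpa and Esrra are the genes whose groups do not overlap, and the other 8 overlap.

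Ppargc1a (ENSMUSG00000029167, chromosome 5 of GRCm38, 51454250 to 51553922, minus strand) encodes PGC-1alpha, the coactivator induced by energy demand. It was at 60.9, 69.4, 83.9 and 68.5 CPM in control libraries 1 to 4 and at 65.7, 57.0, 60.5 and 63.0 CPM in cKO libraries 1 to 4. Only cKO libraries 2 and 3 lay below every control, and control 3 stood above all the others. The cKO mean was 61.5 ± 3.73 CPM (SD, n = 4) and the control mean 70.7 ± 9.59 CPM (SD, n = 4), with a log2 fold change of −0.20 (SE 0.082, edgeR adjusted p = 0.309). Without control 3 the log2 fold change was −0.11, and without control 1 it was −0.26.

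Ppargc1b (ENSMUSG00000033871, chromosome 18) encodes PGC-1beta, a relative with overlapping targets. Its level was 23.1 ± 2.45 CPM in cKO (19.5 to 24.7) and 21.9 ± 1.89 CPM in controls (20.3 to 24.5). The groups overlapped, with a log2 fold change of 0.08 (95% interval −0.10 to 0.27, edgeR adjusted p = 0.794), which was 0.16 without cKO 3 and 0.05 without control 1. The ratio of Ppargc1a to Ppargc1b in TPM was 1.73, 1.91, 2.19 and 1.63 in control libraries 1 to 4 and 1.58, 1.38, 1.80 and 1.46 in cKO libraries 1 to 4. The 2 groups of ratios overlapped, since cKO 3 exceeded controls 1 and 4, and the means were 1.55 ± 0.183 in cKO and 1.86 ± 0.247 in controls.

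Esrra (ENSMUSG00000024955, chromosome 19 of GRCm38, 6910977 to 6921840, minus strand) encodes ERR-alpha, an orphan receptor that PGC-1 coactivators use to reach respiratory genes. It was at 56.5, 53.8, 53.9 and 52.2 CPM in control libraries 1 to 4 and at 38.1, 46.3, 49.2 and 49.8 CPM in cKO libraries 1 to 4. Every cKO library lay below every control library, and cKO 1 lay well below the other cKO libraries. The cKO mean of 45.9 ± 5.38 CPM was 84.8% of the control mean of 54.1 ± 1.76 CPM. The log2 fold change of −0.24 was the largest in size of the 9 regulators above 1 CPM (SE 0.075, edgeR adjusted p = 0.163). Without cKO 1 it was −0.15. In TPM the groups also did not overlap, with the highest cKO library and the lowest control library both at 40.3 TPM after rounding and a log2 difference of the means of −0.21. Esrra overlaps Trmt112 on the other strand over 73 of its 10864 bases, and the kit does not mark strand, so reads of the shared bases cannot be told apart. Trmt112 held 41.9% as many counts as Esrra, with a log2 fold change of −0.01.

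Ppara (ENSMUSG00000022383, chromosome 15 of GRCm38, 85735564 to 85802819, plus strand) encodes PPAR-alpha, which binds DNA with a retinoid X receptor. It held 38, 55, 65 and 29 raw counts in control libraries 1 to 4 and 66, 54, 41 and 48 in cKO libraries 1 to 4. The groups overlapped, and control 4 held the lowest count and cKO 1 the highest. The log2 fold change was 0.21 with a 95% interval from −0.37 to 0.79 (edgeR adjusted p = 0.830). It ranged from 0.05 without control 4 to 0.36 without control 3.

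Nrf1 (ENSMUSG00000058440, chromosome 6 of GRCm38, 30047988 to 30153458, plus strand) encodes nuclear respiratory factor 1. Its cKO mean was 44.1 ± 1.54 CPM (range 42.7 to 46.1) and its control mean 46.0 ± 2.59 CPM (range 42.4 to 48.0), with a log2 fold change of −0.06 (95% interval −0.19 to 0.07, edgeR adjusted p = 0.768), which was −0.10 without control 3 and −0.04 without control 1. The cKO libraries all fell within the control range.

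Gabpa (ENSMUSG00000008976, chromosome 16 of GRCm38, 84834925 to 84863779, plus strand) encodes the DNA binding subunit of the GA-binding protein, also called NRF2. It was at 93.4, 96.8, 100.5 and 94.1 CPM in control libraries 1 to 4 and at 89.2, 87.9, 87.4 and 83.2 CPM in cKO libraries 1 to 4. No cKO library reached the lowest control, although the gap between the groups was narrower than the range within either. The means were 86.9 ± 2.61 CPM in cKO and 96.2 ± 3.23 CPM in controls, and the log2 fold change was −0.15 (SE 0.052, edgeR adjusted p = 0.225). The separation was absent in TPM, where controls were at 40.0, 44.9, 44.4 and 35.9 and cKO libraries at 40.0, 43.3, 40.2 and 37.1, with a log2 difference of −0.04. Gabpa overlaps Atp5j, an ATP synthase subunit gene on the other strand, over 701 of its 28855 bases. Atp5j held 252% as many counts as Gabpa and had a log2 fold change of −0.05 (edgeR adjusted p = 0.799), and the part of shared reads in the Gabpa values was not tested.

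Esrra and Gabpa were the 2 of 10 regulators whose cKO libraries all lay below the controls, a pattern held by 3.77% of all genes tested and by 5.93% of genes with a mean of at least 1 CPM. None of the 10 had every cKO library above the controls. In TPM the pattern was left in Esrra alone. Each of the 8 lower regulators had a TPM difference closer to 0 than its log2 fold change from counts, and the median log2 TPM difference was −0.05 over the 10 and 0.01 over the 14295 genes above 1 CPM with a TPM value.

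**Figure D2:**
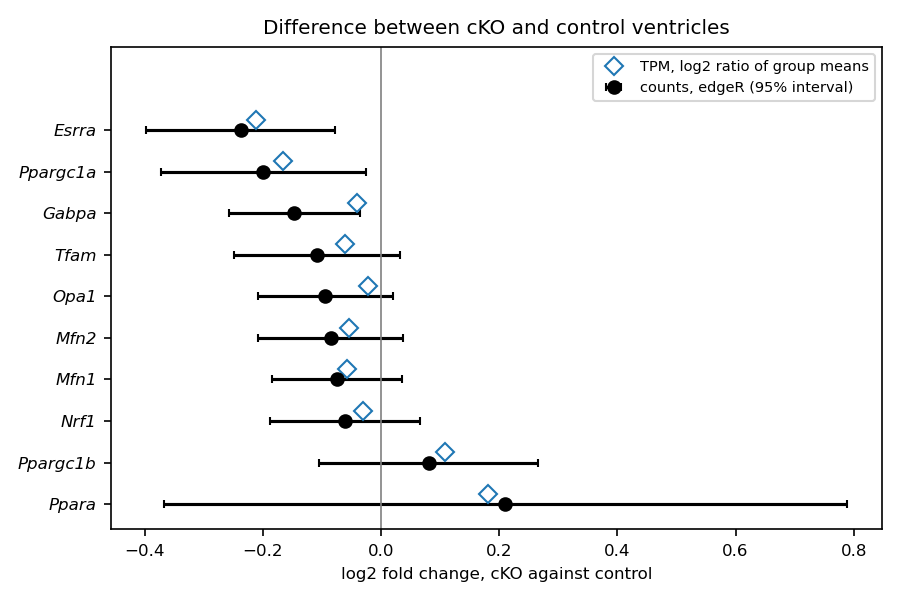
Log2 fold change of each regulator, cKO against control. Black points are edgeR values from the counts with 95% intervals and blue diamonds are log2 ratios of the mean TPM of 4 libraries per group. The intervals of Esrra, Ppargc1a and Gabpa lie below 0, and the TPM value of Gabpa, −0.04, lies near 0.

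Tfam (ENSMUSG00000003923, chromosome 10 of GRCm38, 71225464 to 71238280, minus strand) sets how densely mitochondrial DNA is packed and is needed for its transcription. Control libraries 1 to 4 were at 73.1, 65.4, 64.9 and 73.8 CPM and cKO libraries 1 to 4 at 60.3, 67.4, 69.1 and 60.4 CPM. The cKO libraries fell into a low pair, 1 and 4, and a pair within the control range, 2 and 3. The log2 fold change was −0.11 (SE 0.066, 95% interval −0.25 to 0.03, edgeR adjusted p = 0.553), and it was −0.07 without cKO 4 and −0.14 without cKO 3.

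The 3 fusion genes differed little between the groups. Mfn1 (ENSMUSG00000027668, chromosome 3 of GRCm38, 32529465 to 32579239, plus strand) was at 111.1, 115.4, 116.3 and 119.1 CPM in control libraries 1 to 4 and at 109.3, 108.7, 114.7 and 105.9 CPM in cKO libraries 1 to 4, and cKO 3 alone reached into the control range. Mfn2 (ENSMUSG00000029020, chromosome 4 of GRCm38, 147873599 to 147904704, minus strand) was at 225.1, 247.1, 234.4 and 245.1 CPM in controls and at 230.0, 217.8, 210.5 and 238.5 CPM in cKO, and cKO 1 and 4 lay among the controls. Opa1 (ENSMUSG00000038084, chromosome 16 of GRCm38, 29579334 to 29654884, plus strand) was at 147.0, 152.3, 159.2 and 163.5 CPM in controls and at 150.8, 144.8, 146.2 and 140.8 CPM in cKO, and cKO 1 exceeded control 1. All 3 were lower by sign in cKO and none passed the test. The log2 fold changes were −0.07 for Mfn1 (SE 0.052, edgeR adjusted p = 0.626), −0.09 for Mfn2 (SE 0.058, edgeR adjusted p = 0.607) and −0.09 for Opa1 (SE 0.054, edgeR adjusted p = 0.516). That of Mfn2 was −0.05 without cKO 3 and −0.11 without cKO 4. The ratio of Mfn2 to Mfn1 in TPM was 2.19 ± 0.188 in cKO and 2.18 ± 0.054 in controls (SD, n = 4 each), so the balance of the mitofusins differed by less than the spread between libraries.

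Across libraries, 8, 7, 10 and 7 of the 10 regulators were below their control mean in cKO libraries 1 to 4, and 7, 6, 4 and 4 in control libraries 1 to 4. Most regulators lay below their control mean in all 4 cKO libraries, as they did in controls 1 and 2, and control 1 equalled cKO 2 and 4 in this count. The summed level of the 10 was 801 to 812 CPM in cKO and 836 to 889 CPM in controls, to which Mfn2, Opa1 and Mfn1 gave the most. With each gene weighted alike, the groups overlapped. The mean log2 level relative to the control mean was −0.10 to −0.04 in cKO and −0.06 to 0.05 in controls.

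The other cell types of the ventricle were read from marker lists. Of all 26820 genes tested, edgeR called 230 (0.858%) and DESeq2 867, and 12.8% had an unadjusted p under 0.05 by edgeR. Of 16 endothelial and endocardial markers, 16 were higher in cKO by sign and 7 passed the test by edgeR and 14 by DESeq2, with a median log2 fold change of 0.39. Their mean log2 level relative to the control mean was 0.66, 0.27, 0.21 and 0.71 in cKO libraries 1 to 4 and between −0.17 and 0.06 in controls, and their summed level was 2052 to 2601 CPM against 1616 to 1914 CPM. Of 16 cardiomyocyte markers, whose defining genes such as Tnnt2 (troponin T) and Actc1 (cardiac actin) were abundant in both groups, 12 were lower by sign, edgeR called 0 and DESeq2 2, and 3 were lower and 1 higher with an unadjusted p under 0.05, with a median of −0.06 and summed levels of 44128 to 47508 CPM in cKO and 44391 to 49051 CPM in controls. Relative to the control mean, the cardiomyocyte markers had a mean log2 level of −0.07, −0.09, −0.03 and −0.09 in cKO libraries 1 to 4. Controls lay between −0.05 and 0.04, so the groups overlapped. The endothelial shift moved with the groups, and the part of either marker list in the lower levels of the regulators was not tested. In bulk tissue, fewer cells of a type and less RNA per cell cannot be told apart.

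Markers of macrophages and of liver and yolk sac also stood mostly on one side by sign, at low levels. Of 12 macrophage markers, 11 were higher in cKO, 10 of them with an unadjusted p under 0.05, with a median log2 fold change of 1.78. By edgeR 2 passed and by DESeq2 4, at a summed 16.5 to 46.1 CPM in cKO against 12.8 to 19.1 CPM in controls, and 5 of the 12 had a mean under 1 CPM. Of the 11 liver and yolk sac markers tested, 10 were lower, 8 of them with an unadjusted p under 0.05, with a median of −2.79. By edgeR 0 passed and by DESeq2 2, at a summed 14.7 to 22.1 CPM against 16.5 to 49.5 CPM, and control 1 held the highest value. Alb (albumin) and Serpina1a of the 13 listed were left out by the minimum of 8 counts. Of 12 erythroid markers, 12 were higher, 1 with an unadjusted p under 0.05, and 0 were called by edgeR or DESeq2 (1421 to 4931 CPM against 1546 to 4773 CPM). Of 12 epicardial and mesenchymal markers, 8 were lower, 2 of them with an unadjusted p under 0.05, and edgeR called 0 and DESeq2 2 (866 to 1072 CPM against 925 to 1087 CPM). The part of these cell types in the values of the regulators was not tested.

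**Figure D3:**
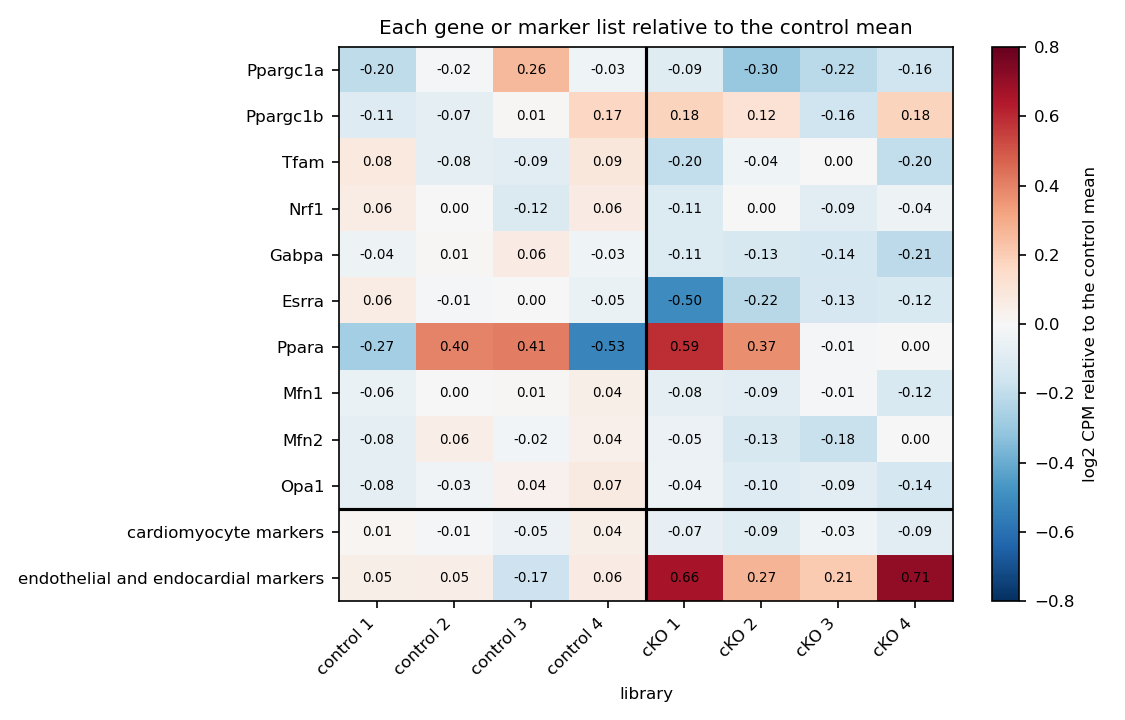
Log2 CPM relative to the control mean for each regulator and, under the line, the mean over the cardiomyocyte markers and over the endothelial and endocardial markers, in each of 8 libraries (columns, controls left of the line). Esrra is lowest in cKO 1, and the endothelial and endocardial markers reach 0.66 and 0.71 in cKO 1 and cKO 4.

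By the pattern over the 8 libraries, the gene most like Esrra among 14301 genes was Nkx2-5, the cardiac homeobox factor, with a Pearson r of 0.99 and a Spearman rho of 0.976 in log2 CPM. Nkx2-5 is also on the list of cardiomyocyte markers above, and its log2 fold change was −0.32 (edgeR adjusted p = 0.109). Egln2, Fam207a and Apob had an r of 0.99 as well, and Chchd10, a mitochondrial intermembrane space protein gene, had an r of 0.98 and a rho of 0.905. Apob, a lipoprotein gene of liver and yolk sac, had a mean of only 1.06 CPM. Relative to the control mean, Esrra was at −0.50 in cKO 1 and between −0.22 and 0.06 in the other libraries, and a Pearson r leans on so low a library. The correlations share the same 8 libraries and scaling, and describe likeness of pattern alone.

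Among 23 cofactors and relatives of the regulators, 11 were higher and 12 lower, with a median log2 fold change of −0.00. The test was passed by 3, 2 lower and 1 higher, against 0.858% of all genes tested. At an unadjusted p under 0.05, 5 were lower and 3 higher, against 12.8% of all genes in either direction. The cKO libraries all lay below the controls in 4 of the 23, against 3.77% of all genes, and all above in 1. The lowest adjusted p was that of Prkaa2, which encodes the alpha2 catalytic subunit of AMPK, an energy sensor known to act on PGC-1alpha. Prkaa2 was at 182.9, 201.7, 208.1 and 207.6 CPM in control libraries 1 to 4 and at 144.7, 148.9, 146.2 and 146.9 CPM in cKO libraries 1 to 4. Every cKO library lay below every control, and the cKO libraries were within a few CPM of each other. Prkaa2 fell by 0.45 on the log2 scale (SE 0.055, edgeR adjusted p = 0.00159), while its relative Prkaa1 had a log2 fold change of 0.01 (edgeR adjusted p = 0.966). The call for Prkaa2 held with each library left out in turn and was lost in both fits on TPM, where the highest limma adjusted p was 0.128.

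Rxra, a retinoid X receptor and partner of PPAR-alpha, was at 71.9, 78.5, 79.1 and 83.2 CPM in control libraries 1 to 4 and at 61.8, 63.6, 62.9 and 70.2 CPM in cKO libraries 1 to 4. The groups did not overlap, and Rxra fell by 0.27 on the log2 scale (SE 0.061, edgeR adjusted p = 0.0474), just inside the threshold. Its call was lost without cKO 1 (edgeR adjusted p = 0.165), cKO 2 (0.0925), control 1 (0.0633), control 2 (0.116), control 3 (0.133) or control 4 (0.172). It was also lost with filterByExpr, limma-voom and both fits on TPM, up to a limma adjusted p of 0.286. Perm1, a muscle regulator that acts with PGC-1 and ERR factors, was the gene that rose. It was at 2.68, 2.80, 3.20 and 2.86 CPM in control libraries 1 to 4 and at 5.50, 4.05, 4.31 and 5.46 CPM in cKO libraries 1 to 4, with a log2 fold change of 0.74 (SE 0.151, edgeR adjusted p = 0.0281). All cKO libraries exceeded all controls. Its call was lost without cKO 1 (edgeR adjusted p = 0.106), cKO 4 (0.0604), control 1 (0.102), control 2 (0.0720), control 3 (0.0628) or control 4 (0.102), and in both fits on TPM, up to a limma adjusted p of 0.202.

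**Figure D4:**
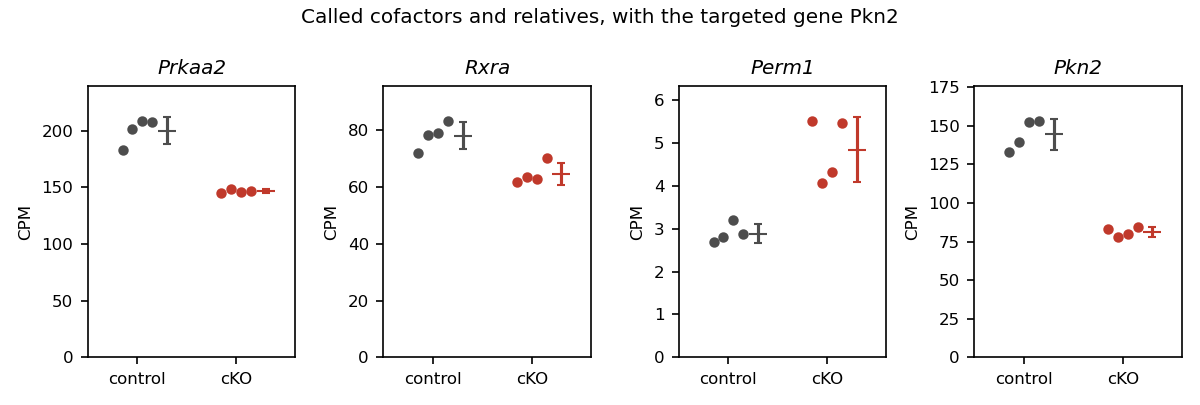
CPM of the 3 called cofactors and relatives, Prkaa2, Rxra and Perm1, and of the targeted gene Pkn2, with 1 point per library (grey, 4 control; red, 4 cKO) and the mean with its SD. The vertical axes start at 0 and differ between panels, and the groups overlap in none of the 4 genes.

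Downstream of the regulators, 0 of the 20 genes of mitochondrial DNA maintenance and transcription passed by edgeR or DESeq2. By sign 16 were lower and 4 higher, where 55.2% of genes with a mean of at least 1 CPM were lower. With an unadjusted p under 0.05, 2 were lower, against 6.2% of all genes tested. In 3 of the 20 every cKO library lay below every control, against 3.77% of all genes tested. The median log2 fold change of the 20 was −0.05. The widest differences above 1 CPM were those of Tfb2m, a mitochondrial transcription factor (−0.26, 16.1 ± 1.48 against 19.4 ± 0.879 CPM, edgeR adjusted p = 0.146), and Mgme1, a mitochondrial exonuclease (−0.20, edgeR adjusted p = 0.218). Of the 12 textbook NRF1 and GABPA targets, a list that includes Tfam and shares Tfb1m, Tfb2m and Polrmt with the list before it, 9 were lower, 2 of them with an unadjusted p under 0.05, and 0 passed by edgeR or DESeq2, with a median of −0.09. Besides Tfb2m the widest was Sdhd, a subunit of respiratory complex II, at −0.15 (edgeR adjusted p = 0.350). The 13 protein-coding transcripts of the mitochondrial genome were read very differently by the deposited tables. Among the counts, 6 of them, mt-Co2, mt-Atp8, mt-Atp6, mt-Co3, mt-Nd3 and mt-Nd4l, held only 0.632 to 14.6 CPM, while the same 6 were at 923 to 8138 TPM in the authors' other table, so their counts say little about their level and the reason was not tested. The other 7 held 865 to 12120 CPM, of which 5 were lower and 2 higher in cKO, and none of the 13 had an unadjusted p under 0.05 or was called by edgeR or DESeq2. In TPM 10 of the 13 were lower and 3 higher. mt-Co1, which encodes the core subunit of respiratory complex IV, averaged 11604 CPM in cKO ventricles against 12636 CPM in control ventricles (log2 fold change −0.12, edgeR adjusted p = 0.640). mt-Co3 turned direction between the tables, at 6.63 against 5.76 CPM (0.20, edgeR adjusted p = 0.699) and 5292 ± 679 against 5627 ± 583 TPM (log2 difference −0.09). The count boundary between the 6 and the 7 was drawn after seeing the values. The levels of mitochondrial transcripts in poly(A)-selected libraries depend on how much of each was captured.

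Around the fusion genes, the 26 genes of fission, OPA1 processing and cristae showed 23 lower and 3 higher, with a median of −0.08. By edgeR 0 passed and 6 were lower with an unadjusted p under 0.05, against 6.2% of all genes tested. In 4 of the 26 every cKO library lay below every control, against 3.77% of all genes tested. DESeq2 called 1, Phb, a prohibitin of the inner membrane that stabilises OPA1. Phb was at 214, 197, 200 and 227 CPM in control libraries 1 to 4 and at 174, 178, 195 and 173 CPM in cKO libraries 1 to 4. The groups were apart, with cKO 3 just below control 2, at a log2 fold change of −0.22 (edgeR adjusted p = 0.109, DESeq2 adjusted p = 0.0220). Pld6, a mitochondrial phospholipase, had a log2 fold change of −0.44 at 1.26 against 1.71 CPM (edgeR adjusted p = 0.410), and the fission GTPase gene Dnm1l had −0.08 (edgeR adjusted p = 0.687). Of 11 mitophagy genes tested of 12 listed, 5 were higher, 6 lower and 0 passed with either tool, and 1 in each direction had an unadjusted p under 0.05. Bnip3, a mitophagy receptor, had a log2 fold change of 0.35 (edgeR adjusted p = 0.368) and Marchf5, a mitochondrial ubiquitin ligase, −0.15 (edgeR adjusted p = 0.308).

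Of 27 genes of fatty acid oxidation and of PPAR-alpha and ERR-alpha targets, 18 were lower, 9 higher and 0 passed by edgeR, with a median of −0.07. Of the 27, 7 were lower with an unadjusted p under 0.05, against 6.2% of all genes tested. DESeq2 called 2 of the 27, Cd36 and a gene not named here, and 867 of all 26820 genes. Cd36, which encodes a fatty acid uptake protein that endothelial cells also make, averaged 24.95 ± 3.38 CPM in cKO ventricles and 31.7 ± 3.04 CPM in control ventricles, with a log2 fold change of −0.34 (edgeR adjusted p = 0.0999, DESeq2 adjusted p = 0.0261). Cpt1a, which admits fatty acids to mitochondria, had a log2 fold change of 0.05 (edgeR adjusted p = 0.884). The medians of these 7 lists of related genes ran from −0.09 to −0.00, against 0.39 for the endothelial and endocardial markers.

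**Figure D5:**
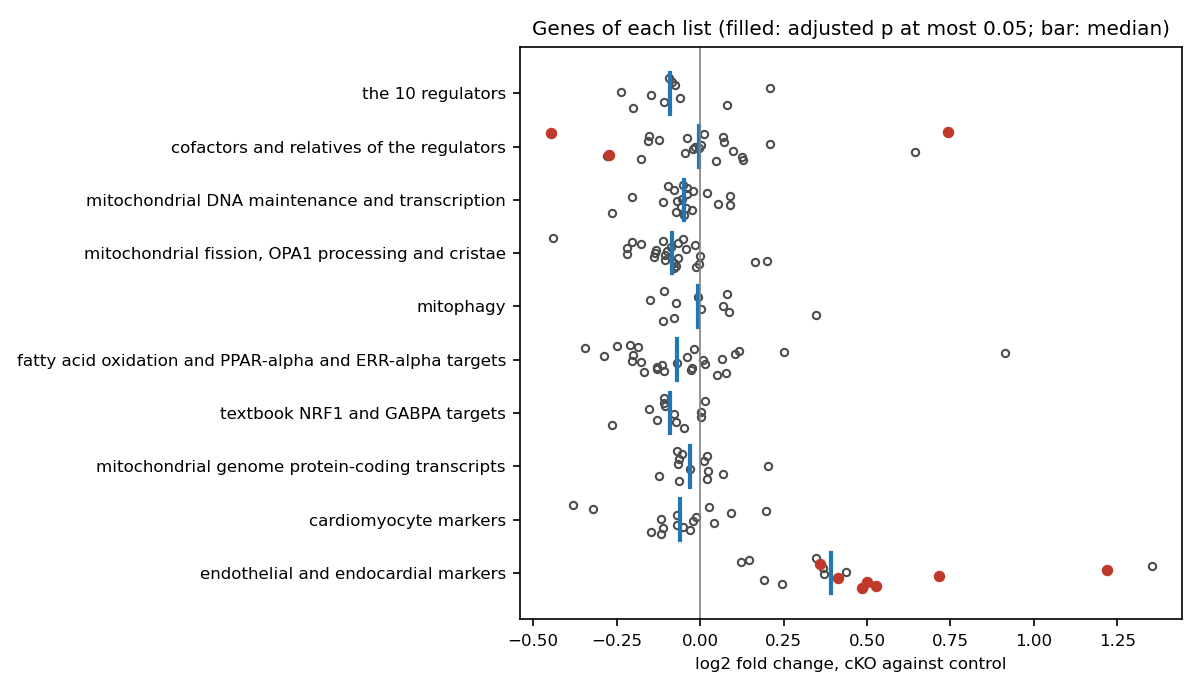
Log2 fold change of each gene tested, cKO against control, for the 10 regulators, 7 lists of related mitochondrial genes and 2 marker lists (rows). Filled red circles have an edgeR adjusted p of at most 0.05 and blue bars are list medians. Called genes appear among the cofactors and relatives (3) and the endothelial and endocardial markers (7).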

How the data were processed

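Ventricular RNA of 8 embryos was sequenced from poly(A)-selected libraries made with a kit that does not mark strand. The authors deposited raw counts for each of 55291 gene symbols and, in a second table, TPM values scaled for transcript length by the authors. The TPM table had 55400 rows, which were summed here by gene symbol, and each regulator had a single row. There were no pooled columns, and the tables hold 0 columns that were left out. The submitters' processing notes name Trim Galore 0.6.7, HISAT2 2.2.1, StringTie 2.2.1, featureCounts, FastQC and DESeq2, and the paper names an nf-core workflow. The strand setting of the counting is not given in the sources used here. The sources name GRCm39, but the gene starts in the deposited TPM table did not match that build. Of 37916 genes compared, 85.8% started within 1000 bases of their RefSeq start on GRCm38, matched by symbol. Only 3.26% did so for their GENCODE start on GRCm39, matched by Ensembl ID. Positions are therefore given as GRCm38.

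Counts were tested with edgeR 4.0.16 in R 4.3.3 (quasi-likelihood F test, TMM, condition alone) on genes whose counts summed to 8 or more, and p-values were adjusted by Benjamini-Hochberg over all genes. Log2 CPM used a prior count of 2. Alternatives were DESeq2 1.42.0, limma 3.58.1 (voom, and log2 TPM with pseudocounts of 1 and 0.1), DESeq2 size factors, a replicate block, filterByExpr or no filter on low counts, and each library left out in turn. Nothing says that the replicate numbers pair litters, and libraries of the same number had correlations of deviations from their group means of −0.19, −0.03, 0.01 and −0.14 over 14302 genes, so they were not taken as pairs. No 2 libraries of a group agreed within counting error (chi-square per degree of freedom 12.0 to 39.1). The code was tested on simulated data.

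The 10 regulators, the lists and the motif letters were chosen with earlier results of these data known. Named from each list were the genes called, or otherwise the 2 with the largest absolute log2 fold change among those with a mean of at least 1 CPM, and for Esrra, the regulator above 1 CPM with the largest absolute log2 fold change, the 5 genes most alike. The values of 1 further gene that the rule names are not reported here. Prkaa1, Dnm1l, Cpt1a, Tnnt2 and Actc1, and the overlapping genes Trmt112 and Atp5j, were named outside that rule, after their values were seen. Promoters came from RefSeq (GRCm38.p6).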

Additional observations from a re-analysis of the deposited data

Results flagged for a closer look

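Single libraries stood apart from the other 3 of their group in the summed level of 5 gene lists, past Dixon's 95% critical value, among 48 groups checked, of which chance flags about 1 in 20. The cofactors and relatives of the regulators summed to 1317 CPM in cKO 3, below 1394 to 1406 CPM in the other cKO libraries. The genes of mitochondrial DNA maintenance and transcription summed to 725 CPM in control 3, below 754 to 757 CPM in the other controls. Mitophagy genes summed to 815 CPM in cKO 4, above 694 to 712 CPM in the other cKO libraries. Among markers of other cell types, macrophage markers summed to 19.1 CPM in control 2, above 12.8 to 13.6 CPM, and liver and yolk sac markers to 49.5 CPM in control 1, above 16.5 to 19.96 CPM. None of the 10 regulators had a library past that critical value.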

How the results depend on the processing

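Over 16 alternatives each of the 10 regulators kept the sign of its log2 fold change, and 0 were called in any, the lowest adjusted p being 0.0687 for Esrra without a filter on low counts. The count of all genes called, 230 past the adjusted p threshold and 98 past both thresholds, was less stable. It was 878 and 366 with no filter, 867 and 230 with DESeq2, 2 and 1 with limma on log2(TPM + 1), 5 and 4 with limma on log2(TPM + 0.1), and 380 and 168 with the replicate block. With limma-voom 62 passed both thresholds. Leaving out 1 library gave 67 (without control 1) to 744 (without cKO 3) past the adjusted p threshold and 31 to 296 past both, with the same libraries at the ends, and the cause was not tested. The replicate block changed no call among the regulators or among Prkaa2, Rxra and Perm1. Ppara had the fewest counts of the 10 regulators, 396 over 8 libraries.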
